A study of Mus musculus with 32 samples.

Results

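Bone morphogenetic proteins (BMPs), their receptors and inhibitory SMADs, and the macrophage growth factor gene Csf1 were followed across sorted nuclei of the mouse gut muscle layer. The members were a named set of 10 genes (Bmp2, Bmp4, Bmp5, Bmp7, Bmpr1a, Bmpr1b, Bmpr2, Smad6, Smad7 and Csf1), found by symbol among the 51912 gene identifiers of the deposited table, and all 10 were present. Nuclear RNA had been sequenced from 32 libraries in 8 groups of 4, made by crossing sort, gut segment and animal facility. All mice were C57BL/6, were kept specific pathogen free, and had received the virus AAV9-CaMKII-EGFPKASH by vein 5 weeks before the longitudinal muscle and myenteric plexus were peeled off. EGFP+ nuclei are called neuronal and EGFP- nuclei non-neuronal, from colon and from small intestine (SI), in animals of the University of Bern and of the Francis Crick Institute. The 8 groups were thus Bern colon, Bern SI, Crick colon and Crick SI, each with neuronal and non-neuronal nuclei. The reporter is driven by a CaMKII promoter, so the EGFP+ gate holds transduced cells in which that promoter is active, and neurons without the reporter fall into the EGFP- gate. The labels do not say that the replicates of a group came from separate animals, so p-values measure the spread between these libraries, which may be technical.

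BMP ligands are secreted dimers that bind a complex of type I receptors (such as BMPR1A and BMPR1B) and type II receptors (such as BMPR2). The activated type I receptor phosphorylates receptor SMADs, which join SMAD4 and switch on targets such as the Id genes, while SMAD6 and SMAD7 are induced inhibitors that close a feedback loop. In the mouse muscularis externa, macrophages have been described as a source of BMP2 that acts on enteric neurons, and enteric neurons as a source of CSF1, the growth factor that keeps macrophages alive through the receptor CSF1R.

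Levels are CPM, counts relative to the library total after scaling to a common library size. Fold changes are log2 values ± SE from edgeR's quasi-likelihood test, with p adjusted by Benjamini-Hochberg over all genes of the fit and called at 0.05. Between Bern and Crick libraries depth differed, with 2394513 to 4618395 counts and 15641 to 22406 detected genes in Bern against 3788206 to 8350887 counts and 25675 to 34994 genes in Crick. Marker genes bore out the sort, since the summed pan-neuronal level was 2670 to 5500 CPM in neuronal nuclei and 47.0 to 1780 CPM in non-neuronal nuclei. The summed macrophage level was 8.4 to 34.6 CPM in neuronal nuclei and 109 to 1020 CPM in non-neuronal nuclei, that of smooth muscle 424 to 1330 CPM against 5560 to 22700 CPM, and that of endothelium 0.8 to 21.9 CPM against 33.1 to 385 CPM. The summed level of interstitial cells of Cajal did not separate the sorts, at 264 to 2330 CPM in neuronal nuclei and 265 to 1410 CPM in non-neuronal nuclei. Its genes did not move together. Averaged over facility and segment, Etv1 was called higher in neuronal nuclei (2.03 ± 0.20), and Kit, Ano1, Prkcq and Thbs4 lower. The average hides SI, where group means of Kit, Ano1 and Prkcq were higher in neuronal nuclei and that of Thbs4 lower. In Crick SI the neuronal and non-neuronal means were 437 and 122 CPM for Kit, 383 and 191 for Ano1, and 157 and 30.4 for Prkcq. In Bern SI they were 255 and 184, 254.5 and 188, and 106 and 28.3 CPM. In 6 libraries a mitochondrial share or a marker sum stood high for the group: replicate 2 of both sorts in Crick SI, Bern colon non-neuronal replicates 1 and 2, Bern SI non-neuronal replicate 1 and Crick colon non-neuronal replicate 3. They were kept, and calls that end without them are given with their values.

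Promoter sequences of the members came from RefSeq on GRCm38.p6, with 7 of the 10 genes used, in windows from 250 bases before to 30 after the annotated start. They are shown for 4 genes whose levels the results below turn on: Bmp4 and Bmpr1a, lower in neuronal nuclei in all 4 combinations of facility and segment (strata), Smad6, at 0 counts in neuronal nuclei of Bern colon, and Csf1, which was not called between the sorts. For Bmp4 the Bern SI call was lost without non-neuronal replicate 2 (-0.24). Each is written 5′ to 3′ on the strand of the gene. Capitals mark matches to 2 published SMAD binding motifs, the GC-rich element GGCGCC and the palindrome GTCTAGAC, which is not particular to BMP signalling. Both strands were searched, which for palindromes are the same letters.
Bmp4, chr14:46390640-46390919, minus strand: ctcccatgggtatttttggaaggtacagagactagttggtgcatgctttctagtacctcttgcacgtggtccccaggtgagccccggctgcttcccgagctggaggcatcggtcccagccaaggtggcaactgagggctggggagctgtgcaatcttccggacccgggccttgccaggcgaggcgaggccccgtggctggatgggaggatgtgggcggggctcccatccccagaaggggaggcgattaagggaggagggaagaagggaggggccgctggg
Bmpr1a, chr14:34502517-34502796, minus strand: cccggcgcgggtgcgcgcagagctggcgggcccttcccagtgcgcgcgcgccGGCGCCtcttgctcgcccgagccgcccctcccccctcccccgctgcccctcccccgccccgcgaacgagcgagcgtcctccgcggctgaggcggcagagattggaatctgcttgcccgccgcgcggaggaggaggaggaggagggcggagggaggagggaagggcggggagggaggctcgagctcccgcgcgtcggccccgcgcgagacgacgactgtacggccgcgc
Smad6, chr9:64022030-64022309, minus strand: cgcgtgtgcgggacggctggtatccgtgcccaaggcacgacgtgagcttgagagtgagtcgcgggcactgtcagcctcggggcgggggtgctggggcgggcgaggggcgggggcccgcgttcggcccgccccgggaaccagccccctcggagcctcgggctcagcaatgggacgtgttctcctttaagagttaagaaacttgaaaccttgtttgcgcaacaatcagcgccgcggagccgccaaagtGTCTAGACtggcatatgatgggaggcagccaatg
Csf1, chr3:107760440-107760719, minus strand: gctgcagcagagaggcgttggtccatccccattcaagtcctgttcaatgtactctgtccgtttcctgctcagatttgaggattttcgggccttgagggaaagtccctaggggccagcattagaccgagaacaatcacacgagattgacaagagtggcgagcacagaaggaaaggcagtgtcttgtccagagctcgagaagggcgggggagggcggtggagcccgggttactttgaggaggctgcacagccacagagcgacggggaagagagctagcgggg

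The Smad6 window held GTCTAGAC, with its first base at -4 relative to the start, a match found in 0.192% of the 32851 promoter windows of the same length. The Bmpr1a window held GGCGCC at -198, and the window of Bmpr2 (chr1:59764029-59764308, plus strand) held it at -105, a match found in 10.9% of all windows. Neither motif was in these windows of Bmp4, Bmp5, Bmpr1b or Csf1. The Bmpr1b windows lie between chr3:141931391 and 141982514 on the minus strand, inside the gene, whose outermost start in GENCODE M21 is 142169425. No window at that start was searched. GC content was 78.6% for Bmpr1a with 44 CpG, 65.4% for Smad6 with 27 CpG, 64.3% for Bmp4 with 12 CpG and 57.5% for Csf1 with 13 CpG, beside medians of 52.5% and 6 CpG over all windows. These matches describe the letters of the windows, and binding was not measured.

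On GRCm38 (GENCODE M21) the ligand genes lie at chr2:133552159-133562885 (Bmp2, plus strand), chr14:46383520-46390669 (Bmp4, minus), chr9:75775364-75900310 (Bmp5, plus) and chr2:172868012-172940321 (Bmp7, minus). The receptor genes lie at chr14:34410734-34503341 (Bmpr1a, minus), chr3:141837136-142169425 (Bmpr1b, minus) and chr1:59763400-59879014 (Bmpr2, plus). Smad6 lies at chr9:63953076-64022059 (minus), Smad7 at chr18:75367529-75395935 (plus) and Csf1 at chr3:107741048-107760469 (minus). Counts are per whole gene.

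Set per kilobase of exon, so that genes can be compared, the receptors Bmpr2 and Bmpr1a had the highest medians in neuronal nuclei, and Bmpr1a had the highest in non-neuronal nuclei, where Bmpr2 and the ligand Bmp4 came next. In neuronal nuclei the median level per kilobase was 13.7 CPM for Bmpr2, 7.49 for Bmpr1a, 6.61 for Csf1 and 2.08 for Bmp4. The other neuronal medians were below 1 CPM per kilobase, at 0.668 for Bmp7, 0.657 for Smad7, 0.366 for Bmpr1b, 0.23 for Bmp2 and 0 for Bmp5 and Smad6. In non-neuronal nuclei the order was Bmpr1a at 25.0, Bmpr2 at 15.3, Bmp4 at 15.3, Csf1 at 6.81, Smad7 at 2.33, Smad6 at 1.6, Bmp2 at 0.979, Bmp7 at 0.789, Bmpr1b at 0.564 and Bmp5 at 0.327 CPM per kilobase. Every pair of neighbours in either order had ranges over libraries that overlapped.

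**Figure D1:**
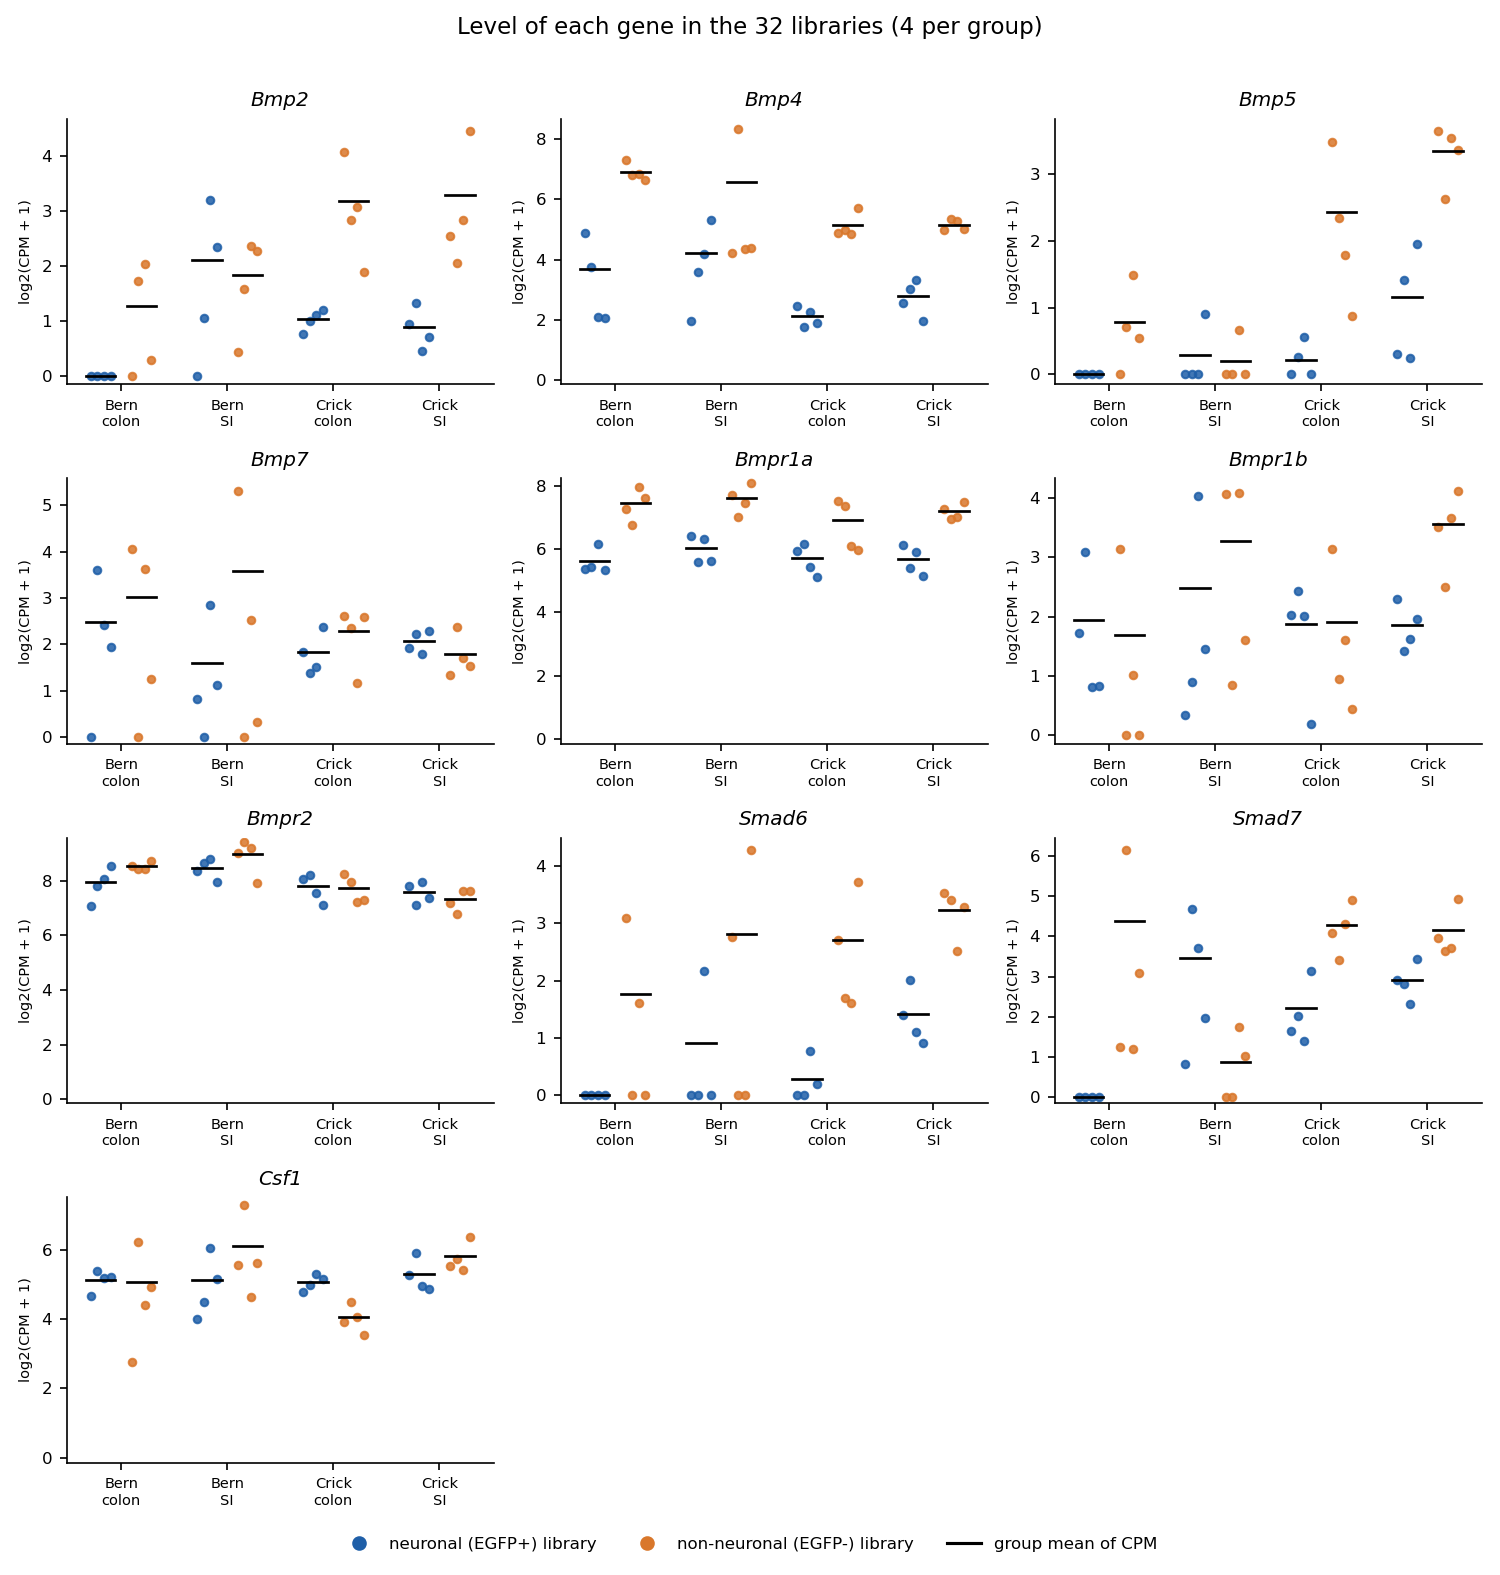
Level of each of the 10 genes in each library, as log2(CPM + 1) on the vertical axis, with the 8 groups along the horizontal axis, neuronal nuclei (blue) left of non-neuronal nuclei (orange) in each facility and segment; bars mark the mean CPM of the 4 libraries. The group means of Bmp4 and Bmpr1a lie lower in neuronal nuclei in every facility and segment, the Csf1 medians are 34.9 CPM (neuronal) and 35.9 CPM (non-neuronal), and Bmp2, Bmp5, Smad6 and Smad7 are at 0 in the 4 neuronal libraries of Bern colon. For Bmp4 in Bern SI the sorts overlap, and non-neuronal replicate 2, at 324 CPM, stands far above the rest.

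The main question set by the sort is which members were made in enteric neurons and which in the cells around them. Between neuronal and non-neuronal nuclei, averaged over the 4 combinations of facility and segment, 6 of the 10 members were lower in neuronal nuclei: the ligands Bmp2, Bmp4 and Bmp5, the type I receptor Bmpr1a and the inhibitory Smad6 and Smad7. No member was higher, and Bmp7, Bmpr1b, Bmpr2 and Csf1 did not pass the test. When neuronal nuclei were taken alone, Bmp2, Bmp5 and Smad6 missed the filter on low counts. In non-neuronal nuclei all 10 members passed it. Bmp2, Bmp5 and Smad6 thus entered the sort test through the nuclei where they are higher. The filter favoured a lower call for them, a limit on the count of lower members and on their median. Over all 21521 genes tested 43.5% were called, 21.6% as lower and 21.9% as higher. The median log2 fold change of the 10 members was -1.98, or -1.61 with genes at 0 in a group set to their floor, beside -0.01 over all genes. In bulk nuclei, fewer cells of a type and less RNA per cell cannot be told apart. Levels of smooth muscle, endothelial and macrophage markers moved with the sort as given above. The summed level of fibroblast and PDGFRA cell markers was 119 to 502 CPM in neuronal and 757 to 2330 CPM in non-neuronal nuclei. That of epithelial markers was 9.4 to 62.6 CPM against 137 to 11800 CPM. The part of all these markers in the members' differences was not tested.

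Among the ligands, Bmp4, a BMP2/4 class ligand, stood out by level. In Bern colon it had 28.4, 12.4, 3.31 and 3.12 CPM in neuronal nuclei against 156, 111, 115 and 98.6 CPM in non-neuronal nuclei. In Crick colon it had 4.47, 2.41, 3.74 and 2.74 CPM in neuronal against 28.3, 30.8, 27.8 and 51.7 CPM in non-neuronal nuclei, and in Crick SI 4.87, 7.2, 9.03 and 2.88 CPM against 30.9, 39.5, 37.7 and 31.1 CPM. In these 3 strata every neuronal library lay below every non-neuronal one. In Bern SI the sorts overlapped, with 2.85, 10.9, 17.4 and 38.5 CPM in neuronal nuclei and 17.7, 324, 19.5 and 20 CPM in non-neuronal nuclei. Non-neuronal replicate 2 stood far above the rest there, and neuronal replicate 4 exceeded the other 3 non-neuronal libraries. The log2 fold change over the 4 strata was -2.93 ± 0.39 (edgeR adjusted p = 5.94e-08). Within strata it was -3.36 ± 0.78 in Bern colon (adjusted p = 0.00171), -3.37 ± 0.79 in Crick colon (0.00213), -2.54 ± 0.76 in Crick SI (0.0223) and -2.45 ± 0.75 in Bern SI (0.0129). Without Bern SI non-neuronal replicate 2 the Bern SI value was -0.24 (adjusted p = 0.814). The Crick SI call ended without non-neuronal replicate 3 (-2.45, 0.0506), without neuronal replicate 1 (-2.45, 0.0702) or 4 (-2.30, 0.092), and without the 6 libraries in doubt (-2.54, 0.08). Bmp4 overlaps the antisense genes Gm15217 and Gm15222, which held 10 and 58 counts over all libraries.

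Bmp2, the ligand described as coming from muscularis macrophages, was sparse. All 4 neuronal libraries of Bern colon had 0 counts, against 0, 2.3, 3.09 and 0.228 CPM in non-neuronal nuclei, so the level was at least 6.78-fold lower, taking 3 counts over the group as the floor, and at least 4.07-fold lower without non-neuronal replicate 3. In Crick colon Bmp2 had 0.706, 1.01, 1.17 and 1.3 CPM in neuronal against 15.8, 6.13, 7.36 and 2.71 CPM in non-neuronal nuclei. In Crick SI it had 0.927, 1.51, 0.376 and 0.626 CPM in neuronal against 4.8, 3.12, 6.15 and 20.7 CPM in non-neuronal nuclei. The sorts did not overlap in either Crick stratum, whereas in Bern SI they did, with 0, 1.07, 8.14 and 4.09 CPM in neuronal nuclei and 0.36, 1.99, 4.14 and 3.85 CPM in non-neuronal nuclei. Over the 4 strata the fitted log2 fold change was -2.90 ± 0.64 (edgeR adjusted p = 0.00034), and -2.17 with the group at 0 set to its floor. Within strata Bmp2 was called in Bern colon (adjusted p = 0.011) and missed the threshold in Crick colon (-2.90 ± 1.17, 0.082), Crick SI (-3.30 ± 1.19, 0.0688) and Bern SI (0.33, 0.985).

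Bmp5, a ligand of the BMP5/6/7 class, was detected mainly in non-neuronal nuclei of Crick. It had 0.232, 1.67, 0.188 and 2.88 CPM in neuronal against 11.5, 5.2, 10.7 and 9.33 CPM in non-neuronal nuclei of Crick SI. In Crick colon it had 0, 0.201, 0.468 and 0 CPM in neuronal against 10.2, 4.09, 2.45 and 0.826 CPM in non-neuronal nuclei. Both Crick strata thus separated the sorts fully, while no Bern library of either sort was above 1.8 CPM. In Bern colon the neuronal libraries had 0 counts, at least 3.48-fold lower than the non-neuronal ones, and at least 1.74-fold lower without non-neuronal replicate 3. The fitted log2 fold change over the strata was -2.94 ± 0.78 (edgeR adjusted p = 0.00218), or -2.21 with the floor, and without Bern SI non-neuronal replicate 3 the call was lost (-2.26, 0.9999), as the Bern SI non-neuronal group then held no count. Within strata Bmp5 was called in Crick colon (-4.56 ± 1.44, 0.0225) and Bern colon (adjusted p = 0.0432). Each of these calls ended when single libraries were left out: in Crick colon without non-neuronal replicate 1 or neuronal replicate 1, 2 or 4 (adjusted p 0.0621 to 0.0893), and in Bern colon without any neuronal replicate or without non-neuronal replicate 2, 3 or 4 (0.0505 to 0.117). Without the filter on low counts the adjusted p was 0.0514 in Crick colon and 0.0846 in Bern colon, and without the 6 libraries in doubt it was 0.052 in Bern colon. Bmp5 overlaps the antisense gene Gm26903 (282 counts in all libraries) and Gm47723 (43 counts), whose reads the counting could have split.

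Bmp7, of the same class, did not pass in the sort comparison, at -0.82 ± 0.64 (edgeR adjusted p = 0.328). Its level ran from 0 to 11.2 CPM in neuronal (median 2.68) and from 0 to 38.9 CPM in non-neuronal nuclei (median 3.17). The libraries overlapped in all 4 strata, and the widest spread was in Bern SI non-neuronal nuclei, with 38.9, 0, 4.73 and 0.256 CPM.

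Of the receptors, Bmpr1a was the member that moved most evenly with the sort. It had 39.9, 42.4, 70 and 39.0 CPM in neuronal against 154, 107, 245 and 192 CPM in non-neuronal nuclei of Bern colon. In Bern SI it had 83.2, 46.7, 79.1 and 48.5 CPM in neuronal against 208, 127, 175 and 269 CPM in non-neuronal nuclei, and in Crick SI 68.6, 41.2, 58.9 and 34.5 CPM against 152, 123, 127 and 176 CPM. No neuronal library reached a non-neuronal one in these 3 strata. In Crick colon the groups overlapped, with 59.8, 70.2, 41.7 and 33.7 CPM in neuronal nuclei and 181, 164, 67.4 and 62.2 CPM in non-neuronal nuclei. The log2 fold change was -1.54 ± 0.19 over the strata (edgeR adjusted p = 1.33e-08), and -1.86 ± 0.38 in Bern colon (0.000456), -1.60 ± 0.38 in Bern SI (0.00156), -1.21 ± 0.38 in Crick colon (0.0198) and -1.51 ± 0.38 in Crick SI (0.00515). The Crick colon call ended without non-neuronal replicate 1 or 2 or neuronal replicate 3 or 4 (-1.10 to -0.92, adjusted p 0.0765 to 0.123), and without the filter on low counts (-1.13, 0.092). The antisense gene Gm17110, which overlaps Bmpr1a, held 89 counts over all libraries.

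The type II receptor Bmpr2 was not called. It ran from 133 to 436 CPM in neuronal nuclei (median 246) and from 108 to 688 CPM in non-neuronal nuclei (median 276), giving a log2 fold change of -0.20 ± 0.17 (edgeR adjusted p = 0.369). The other type I receptor, Bmpr1b, was low in both sorts, at 0.144 to 15.5 CPM in neuronal (median 2.19) and 0 to 16.5 CPM in non-neuronal nuclei (median 3.36), and did not pass (-0.65 ± 0.63, adjusted p = 0.435). In Crick SI Bmpr1b had 3.94, 1.67, 2.07 and 2.88 CPM in neuronal against 10.4, 4.68, 11.7 and 16.5 CPM in non-neuronal nuclei, which did not overlap (-2.03 ± 1.27, 0.417), while the sorts overlapped in the other 3 strata.

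The inhibitory SMADs, which are themselves BMP targets, were both lower in neuronal nuclei over the strata. Smad6 had 0 counts in every neuronal library of Bern colon against 7.53, 0, 2.06 and 0 CPM in non-neuronal nuclei. It had 0, 0, 3.49 and 0 CPM in neuronal against 5.76, 0, 0 and 18.5 CPM in non-neuronal nuclei of Bern SI. In Crick colon it had 0, 0, 0.702 and 0.144 CPM in neuronal against 5.57, 2.23, 2.04 and 12.2 CPM in non-neuronal nuclei, and in Crick SI 1.62, 3.01, 1.13 and 0.877 CPM against 10.6, 9.61, 4.71 and 8.79 CPM. The Crick libraries separated fully by sort, and in Bern the non-neuronal groups included 2 libraries each at 0. The fitted log2 fold change was -4.05 ± 0.88 (edgeR adjusted p = 0.000254), or -3.34 with the floor. In Bern colon the level was at least 11.6-fold lower in neuronal nuclei, and at least 3.32-fold lower without non-neuronal replicate 1. That stratum's call (adjusted p = 0.0283) ended without non-neuronal replicate 1 (0.118) or any neuronal replicate (0.0542 to 0.061), and without the 6 libraries in doubt (0.118).

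Smad7 went in opposite directions in the segments of Bern. In Bern colon no neuronal library had a count, against 1.37, 69.4, 1.29 and 7.53 CPM in non-neuronal nuclei, at least 96.1-fold lower (adjusted p = 0.000138) and at least 16.4-fold lower without non-neuronal replicate 2. In Bern SI it had 0.778, 24.7, 12 and 2.92 CPM in neuronal against 0, 0, 2.37 and 1.03 CPM in non-neuronal nuclei, for a log2 fold change of 3.48 ± 1.16 (edgeR adjusted p = 0.0228). The Bern SI groups overlapped, as neuronal replicate 1 lay below the 2 non-neuronal libraries with counts, and the call ended without neuronal replicate 2 (2.36, 0.138) or non-neuronal replicate 1 (3.10, 0.0533) or 2 (2.99, 0.0653). In Crick colon Smad7 had 2.12, 3.02, 1.64 and 7.78 CPM in neuronal against 15.8, 9.66, 18.6 and 29.1 CPM in non-neuronal nuclei, and in Crick SI 6.49, 6.03, 3.95 and 9.9 CPM against 14.4, 11.4, 12.1 and 29.3 CPM. Neuronal libraries were the lower ones throughout Crick, with no overlap, at -2.31 ± 1.06 in colon (0.133) and -1.35 ± 1.02 in SI (0.562). Over the 4 strata Smad7 was lower in neuronal nuclei at -2.42 ± 0.64 (adjusted p = 0.00205), or -1.67 with the floor.

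Csf1, which encodes the macrophage growth factor, was not called between the sorts. It ran from 15.0 to 65.5 CPM in neuronal nuclei (median 34.9) and from 5.82 to 156 CPM in non-neuronal nuclei (median 35.9), and its log2 fold change was -0.10 ± 0.28 (edgeR adjusted p = 0.836). The neuronal groups were close together, at 34.4 ± 7.0 CPM in Bern colon, 34.3 ± 22.4 in Bern SI, 32.6 ± 5.1 in Crick colon and 38.6 ± 13.9 in Crick SI (SD, n = 4 each). Non-neuronal groups differed more, at 32.5 ± 29.5 CPM in Bern colon, 68.4 ± 59.2 in Bern SI, 15.6 ± 4.6 in Crick colon and 55.5 ± 18.4 in Crick SI (SD, n = 4 each). In Crick colon every neuronal library was above every non-neuronal one, with 26.6, 30.6, 38.4 and 34.7 CPM in neuronal against 14.2, 21.7, 15.7 and 10.7 CPM in non-neuronal nuclei, and the difference missed the threshold (1.06 ± 0.56, 0.207). In Bern colon Csf1 had 24.5, 41.2, 35.6 and 36.1 CPM in neuronal against 5.82, 74.3, 20.1 and 29.7 CPM in non-neuronal nuclei (0.08, 0.948). In Bern SI it had 15.0, 21.7, 65.5 and 35.0 CPM in neuronal against 46.5, 156, 23.7 and 48.0 CPM in non-neuronal nuclei (-0.997, 0.177). The sorts overlapped in both, with the widest spread in non-neuronal nuclei. In Crick SI it had 37.5, 58.6, 29.9 and 28.3 CPM in neuronal against 45.3, 52.0, 42.2 and 82.3 CPM in non-neuronal nuclei (-0.52, 0.749), where 1 neuronal library lay within the non-neuronal range.

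The receptor gene Csf1r, which marks macrophages in this tissue, ran against this pattern, with 0 to 10.6 CPM in neuronal nuclei (median 1.36) and 4.68 to 75.3 CPM in non-neuronal nuclei (median 21.2). Its log2 fold change was -3.46 ± 0.48 (edgeR adjusted p = 1.44e-07). The second CSF1R ligand, Il34, had medians of 1.8 CPM in neuronal nuclei and 2.27 CPM in non-neuronal nuclei and did not pass. The summed level of the 12 macrophage markers was 11.7 to 29.4 CPM in neuronal nuclei of Bern colon, where Adgre1, Cd163 and Fcgr1 were at 0. It was 8.42 to 34.6 CPM in the neuronal nuclei of the other 3 groups, with Fcgr1 at 0 in Bern SI.

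**Figure D2:**
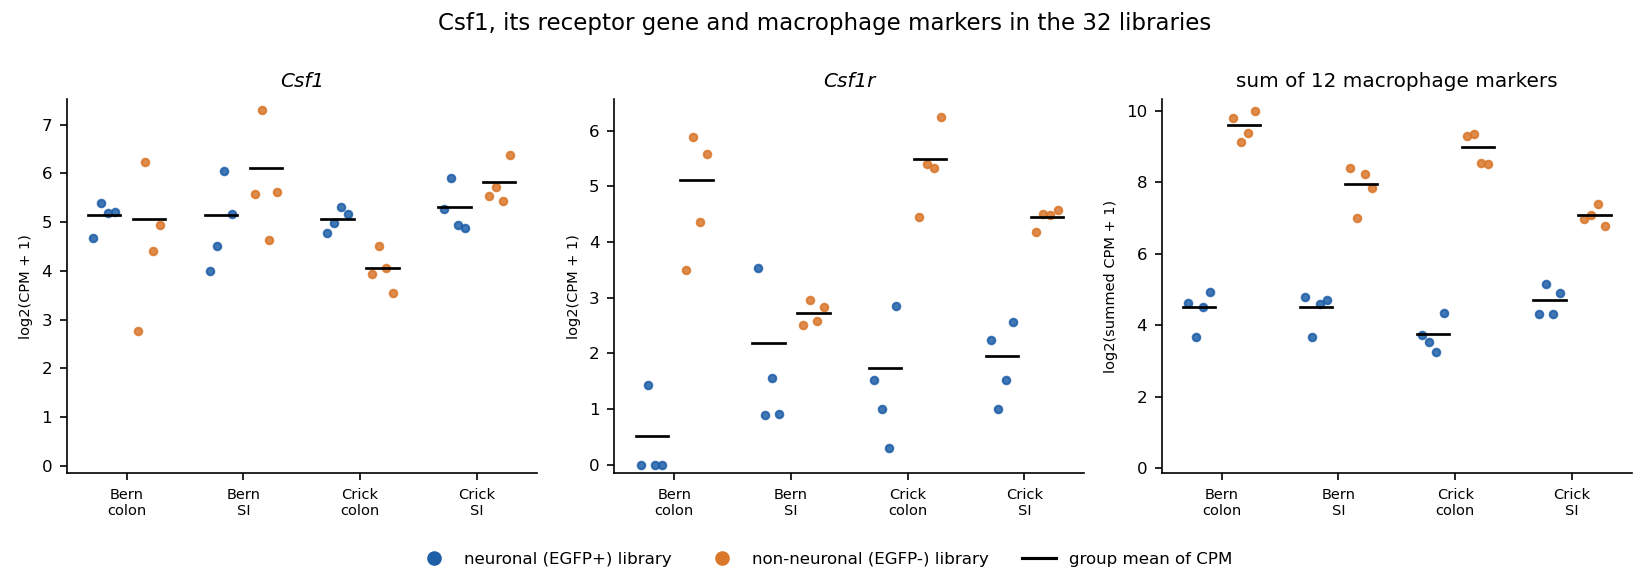
Csf1, Csf1r and the sum of 12 macrophage markers in each library, as log2(CPM + 1) on the vertical axis, with neuronal nuclei (blue) left of non-neuronal nuclei (orange) in each facility and segment. Csf1 overlaps between the sorts in 3 of the 4 strata, while the macrophage sum is 8.4 to 34.6 CPM in neuronal nuclei and 109 to 1020 CPM in non-neuronal nuclei.

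No member separated its libraries in all 4 strata, which 2.55% of genes did in the lower and 3.27% in the higher direction. Within strata the count of called members was 6 in Bern colon, where 25.2% of all genes were called, 3 in Bern SI (30.1%), 3 in Crick colon (18.6%) and 2 in Crick SI (11.6%). Bmp4 and Bmpr1a were the members called in all 4. Some of these calls ended when single libraries were left out, as given above. Without Bern SI non-neuronal replicate 2 the Bern SI value of Bmp4 was -0.24 (edgeR adjusted p = 0.814).

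**Figure D3:**
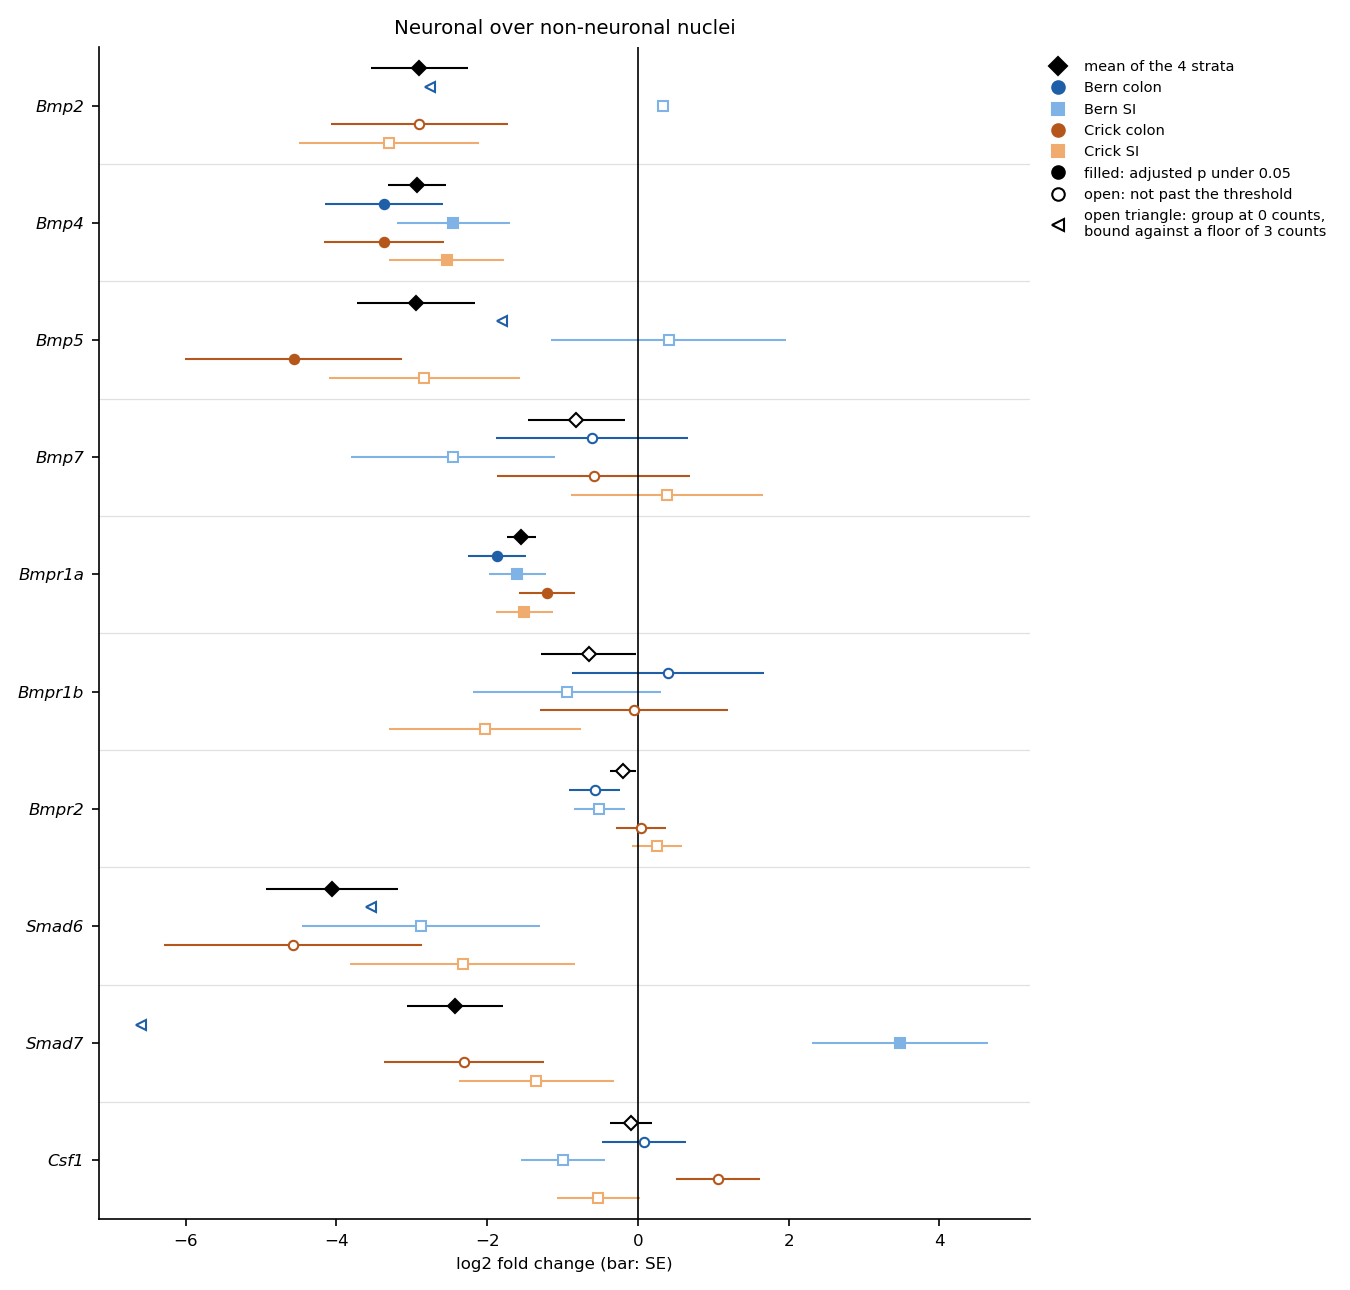
Log2 fold change (± SE) of neuronal over non-neuronal nuclei for each member, as the mean over the 4 strata and in each stratum, with filled symbols for calls at an adjusted p of 0.05 and open triangles for bounds where all Bern colon neuronal libraries were at 0. Bmp4 and Bmpr1a lie left of 0 in every stratum, Smad7 lies right of 0 in Bern SI, and Csf1 lies on both sides. Without Bern SI non-neuronal replicate 2 the Bern SI value of Bmp4 is -0.24.

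The pathway was also read from lists of its parts, which hold the BMP members again. Some listed genes missed the filter on low counts in neuronal nuclei and were tested here through non-neuronal libraries. Among them are Bmp2, Bmp5, Bmp6, Gdf7, Chrdl1, Chrdl2, Sostdc1, Id1, Id3 and Smad6, all called lower. The filter favoured a lower call for these genes, so the counts below do not come from the sort alone. Over all 21521 genes tested 21.6% were lower and 21.9% higher in neuronal nuclei. Of 14 BMP ligand genes 8 were tested, and 6 were lower and none higher. The members Bmp2, Bmp4 and Bmp5 are among these 6. The median log2 fold change of the list was -2.91, between the members Bmp2 (-2.90) and Bmp4 (-2.93), beside -0.01 over all genes. Besides Bmp4 and Bmp5 the largest were Bmp6 at -4.08 ± 0.82 (edgeR adjusted p = 9.95e-05), with 1 neuronal group at 0, and Bmp3, an atypical BMP, at -3.56 ± 0.42 (5.49e-09). Group means of Bmp3 were 2.26 to 4.56 CPM for neuronal nuclei and 19.0 to 80.9 CPM for non-neuronal nuclei.

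Secreted antagonists and modulators, which act on BMP signalling outside the cell, gave 9 of 15 tested genes lower and none higher (17 listed, median -1.79). The list also holds Bmp1 (-2.28 ± 0.36, lower) and Tll1 (-0.70 ± 0.49, not called), which encode proteases and not antagonists. The chordin-like genes Chrdl2 (-5.17 ± 0.66, 5.45e-08, with 1 neuronal group at 0) and Chrdl1 (-5.16 ± 0.44, 2.67e-12) led, followed by Sostdc1 (-3.80 ± 0.66, edgeR adjusted p = 9.52e-06) and the gremlin gene Grem1 (-3.45 ± 0.33, 3.76e-11). Grem1 averaged 1.91 to 17.9 CPM in neuronal nuclei and 22.4 to 208 CPM in non-neuronal groups.

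Receptors and co-receptors split, with 3 of 10 tested genes higher and 4, among them the member Bmpr1a, lower (11 listed, median -0.57). Over all genes 21.9% were higher and 21.6% lower. The co-receptor genes Rgma (-4.40 ± 0.41, 3.36e-11) and Eng, endoglin (-3.18 ± 0.49, 1.2e-06), and the type I receptor Acvrl1 (-3.12 ± 0.72, 0.000537, with 1 neuronal group at 0) were lower. Eng and Acvrl1 are known from endothelium, whose marker sum was 0.8 to 21.9 CPM in neuronal nuclei and 33.1 to 385 CPM in non-neuronal nuclei, and its part in their differences was not tested. The activin type II receptor Acvr2b was higher at 1.61 ± 0.35 (edgeR adjusted p = 0.000218).

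Of 11 SMADs and intracellular regulators, all tested, 1 was higher and 3 lower in neuronal nuclei (median -0.18), beside 21.9% and 21.6% of all genes. Besides Smad6 and Smad7 these were the receptor SMAD gene Smad5 (-0.98 ± 0.21, 0.000164) and the ubiquitin ligase gene Smurf1 (0.80 ± 0.26, edgeR adjusted p = 0.0121). Of the BMP target genes 5 of 9 tested were lower and none higher (11 listed, median -1.66), including Id3 (-2.65 ± 0.59, 0.000324) and Id2 (-1.98 ± 0.47, 0.000639), which encode inhibitors of differentiation. The target list shares Smad6, Smad7 and Bambi with the SMAD list, so the members Smad6 and Smad7 are counted as lower in both.

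**Figure D4:**
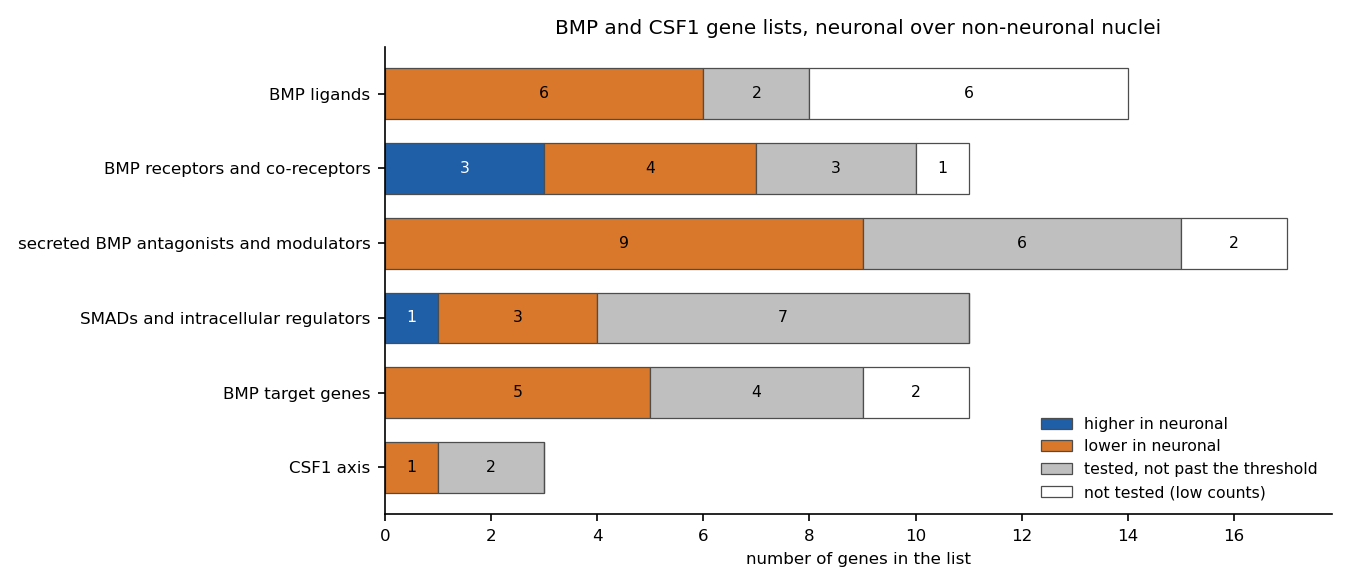
Number of tested genes of each pathway list that were called higher (neuronal over non-neuronal), lower or not called, as stacked bars. Ligands, antagonists and modulators, and targets hold no gene that was higher, and receptors hold 3 higher and 4 lower. Some genes called lower missed the filter on low counts in neuronal nuclei and were tested through non-neuronal libraries. Over all genes tested 21.9% were higher and 21.6% lower.

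The segment comparisons asked whether colon and SI differ in either sort. In neuronal nuclei 7 members could be tested, since Bmp2, Bmp5 and Smad6 were removed by the filter on low counts, and 1 of the 7, Smad7, was called, beside 5.51% of 17419 genes. Smad7 had 0 counts in all 4 Bern colon libraries against 0.778, 24.7, 12 and 2.92 CPM in Bern SI, at least 48.8-fold lower (edgeR adjusted p = 0.00374, in a comparison that called 4.17% of genes) and at least 25.3-fold lower without SI replicate 2. In Crick it had 2.12, 3.02, 1.64 and 7.78 CPM in colon against 6.49, 6.03, 3.95 and 9.9 CPM in SI, which overlapped (-0.90 ± 0.92, 0.999). The value over both facilities was -4.73 ± 0.90 (0.00294), or -3.23 with the floor. The difference between the facilities in this segment effect was -7.65 ± 1.80 and did not pass after adjustment (edgeR adjusted p = 0.373), in a comparison added after the data were seen. With Bern colon set to its floor it was -4.75.

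No other tested member was called between neuronal nuclei of colon and SI. Csf1 was at -0.18 ± 0.31 (edgeR adjusted p = 0.82), Bmp4 at -0.76, Bmp7 at 0.39, Bmpr1a at -0.25, Bmpr1b at -0.38 and Bmpr2 at -0.20 on the log2 scale. Of the filtered genes, Bmp2 was at 0 in Bern colon neuronal nuclei and at 0, 1.07, 8.14 and 4.09 CPM in Bern SI, at least 16-fold lower and at least 8.29-fold lower without SI replicate 3. DESeq2, which tested Bmp2, called it over both facilities (-2.91, adjusted p = 0.0325). Among list genes the receptor genes Acvrl1 (-4.20 ± 1.17, 0.0396, with Bern colon at 0), Eng (-3.87 ± 0.80, 0.00422) and Rgma (-2.69 ± 0.73, 0.0296) were lower in colon neuronal nuclei, 3 of 10 tested, beside 5.51% of all genes called in either direction. The antagonist gene Grem1 (-2.50 ± 0.61, edgeR adjusted p = 0.015) was lower as well. The marker sum of interstitial cells of Cajal in neuronal nuclei was 313 to 471 CPM in Bern colon, 264 to 374 in Crick colon, 662 to 2330 in Bern SI and 1200 to 1900 in Crick SI. In colon most of it was Etv1, with means of 384 CPM in Bern and 305 CPM in Crick. Kit (-5.55 ± 0.60), Ano1 (-7.59 ± 0.55), Prkcq (-8.14 ± 0.56), Thbs4 (-3.83 ± 0.77) and Etv1 (-0.67 ± 0.18) were each called lower in colon neuronal nuclei. The part of these cells in the differences of the pathway genes was not tested.

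In non-neuronal nuclei 1 of 10 members, Csf1, was called between colon and SI, beside 9.32% of 19164 genes. Csf1 had 14.2, 21.7, 15.7 and 10.7 CPM in Crick colon against 45.3, 52.0, 42.2 and 82.3 CPM in Crick SI. In Bern it had 5.82, 74.3, 20.1 and 29.7 CPM in colon against 46.5, 156, 23.7 and 48.0 CPM in SI. The segments did not overlap in Crick, and overlapped in Bern, where replicate 2 was the highest of each segment. The log2 fold change was -1.53 ± 0.45 (edgeR adjusted p = 0.0351), with -1.86 ± 0.65 in Crick (0.442) and -1.21 ± 0.64 in Bern (0.23) when taken apart. The call held when Bern colon replicate 2, Bern SI replicate 1, 3 or 4 or Crick colon replicate 2 was left out, and ended without any of the other 11 libraries, over a range of -1.92 to -1.12 and adjusted p of 0.0116 to 0.0924. Without the 6 libraries in doubt it was -1.80 (0.0653).

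Csf1r moved the other way in the same nuclei, higher in colon by 1.75 ± 0.43 (edgeR adjusted p = 0.0131). Of the 12 macrophage markers 2 were called, Csf1r and Lyve1 (3.73 ± 0.48, 5.09e-05), which is also known from lymphatic endothelium. Macrophage marker sums were 557 to 1020 CPM in Bern colon against 128 to 336 in Bern SI, and 363 to 655 CPM in Crick colon against 109 to 166 in Crick SI. Without Lyve1 they were 138 to 239 CPM in Bern colon against 70.3 to 227 CPM in Bern SI, which overlapped, and 199 to 269 CPM in Crick colon against 96.9 to 156 CPM in Crick SI. Markers of other cells moved too: 5 of 12 pan-neuronal, 5 of 8 endothelial and 2 of 7 epithelial markers were higher in colon non-neuronal nuclei, and 3 of 9 smooth muscle, 4 of 9 fibroblast and PDGFRA cell, 1 of 6 mesothelial and 1 of 8 glial markers were lower. Epithelial sums were 1470 to 11800 CPM in Bern colon against 386 to 867 CPM in Bern SI, and 2190 to 8800 CPM in Crick colon against 137 to 936 CPM in Crick SI. Pan-neuronal sums were 807 to 1780 CPM in Bern colon against 47.0 to 818 CPM in Bern SI, and 187 to 411 CPM in Crick colon against 88.1 to 196 CPM in Crick SI. Endothelial sums were 126 to 385 CPM in Bern colon against 33.1 to 130 CPM in Bern SI, and 155 to 363 CPM in Crick colon against 51.2 to 119 CPM in Crick SI. Smooth muscle sums were 8200 to 16700 CPM in Bern colon against 15400 to 22700 CPM in Bern SI, and 5560 to 8990 CPM in Crick colon against 6600 to 21700 CPM in Crick SI. The mitochondrial share of counts was 3.49% to 7.44% in Bern colon against 11.1% to 12.9% in Bern SI, and 4.75% to 10.2% in Crick colon against 6.28% to 23.6% in Crick SI. The part of these markers in the Csf1 difference was not tested.

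Smad7 was higher in non-neuronal nuclei of Bern colon than of Bern SI (4.33 ± 1.25, edgeR adjusted p = 0.0324, with 10.1% of genes called), at 1.37, 69.4, 1.29 and 7.53 CPM in colon against 0, 0, 2.37 and 1.03 CPM in SI. These groups overlapped, and without colon replicate 2 the value was 1.82 (0.304). The call also ended without SI replicate 1 (0.0501) or 2 (0.0568) and without the 6 libraries in doubt (1.80, 0.39). In Crick it was at 0.09, and over both facilities it missed the threshold (2.21 ± 0.80, 0.0852). It passed there without Bern colon replicate 1 or 3 or Bern SI replicate 3 (0.0439 to 0.0495), by DESeq2 (0.0204), without the filter (0.0292) and in the joint fit of both sorts (0.0425). Bmpr1b was at -2.05 in colon over SI (0.188), and at -3.33 (0.0371) without Bern colon replicate 1. Bmp4 was at 0.06 with all libraries, and at 1.24 (0.00578) without Bern SI replicate 2, the library at 324 CPM.

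Other pathway genes also differed between the segments in non-neuronal nuclei. Chrdl2 was higher in colon (4.60 ± 0.69, 0.000276), while Grem1 (-2.70 ± 0.34, edgeR adjusted p = 3.37e-05) and Chrdl1 (-1.54 ± 0.36, 0.00906) were lower, 1 higher and 2 lower of 15 antagonists and modulators tested, beside 9.32% of all genes called in either direction. Grem1 averaged 32.7 CPM in Bern colon against 208 CPM in Bern SI and 22.4 CPM in Crick colon against 133 CPM in Crick SI. Rgma (-1.64 ± 0.41, 0.0148), Smad9 (-2.19 ± 0.40, 0.00151), which encodes a receptor SMAD, and Id2 (-2.08 ± 0.64, 0.0413) were lower in colon, each the only called gene of its list. Of the 8 ligands tested none was called by edgeR.

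Whether the segment difference depended on the sort was tested by the segment by sort interaction, the colon over SI difference in neuronal minus that in non-neuronal nuclei. It called 1 of 10 members, Smad7 at -6.98 ± 1.28 (edgeR adjusted p = 0.000837), beside 6.48% of all genes, and the value was -5.57 with Bern colon neuronal nuclei at their floor. For Csf1 it was 1.33 ± 0.55 (0.158), and 1.74 (0.0444) without Bern colon non-neuronal replicate 2. For Bmp4 it was -0.87 (0.571), and -2.06 (0.0294) without Bern SI non-neuronal replicate 2. Of the lists, Gdf7 (-6.01 ± 1.59, 0.0179), Eng (-3.71 ± 0.94, 0.0131), the antagonist-like Fstl1 (-1.29 ± 0.39, 0.0364), the pseudoreceptor Bambi (-4.74 ± 1.16, 0.0103) and Csf1r (-3.42 ± 0.90, 0.0178) were called lower, and Smad9 higher (2.52 ± 0.61, edgeR adjusted p = 0.00902).

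Comparisons of the facilities asked whether animals of Bern and Crick differ. Facility also goes with the depth and the number of detected genes given above, and these cannot be told apart. Some cell markers differed too. In non-neuronal nuclei Snap25 (3.00 ± 0.56, edgeR adjusted p = 0.0019), Lyve1 (2.19 ± 0.45, 0.0039), Col1a1 (0.94 ± 0.25, 0.022) and Myh11 (0.88 ± 0.27, 0.043) were higher in Bern. Pdgfra (-1.13 ± 0.28, 0.0127) and Cd3e (-3.32 ± 0.90, 0.022) were lower, and many other markers were not called. The part of these markers in the members' differences was not tested. In neuronal nuclei 1 of 7 tested members, Smad7, was called, beside 7.72% of all genes. In colon all 4 Bern libraries were at 0 against 2.12, 3.02, 1.64 and 7.78 CPM in Crick, at least 17.6-fold lower (edgeR adjusted p = 0.0208, with 3.09% of genes called), and at least 10.9-fold lower without Crick replicate 4. This colon call ended without Crick replicate 2 (0.0605). In SI it had 0.778, 24.7, 12 and 2.92 CPM in Bern against 6.49, 6.03, 3.95 and 9.9 CPM in Crick, which overlapped (0.61, 0.872). Over both segments it was -3.22 ± 0.90 (0.0318), or -1.76 with the floor. The call ended without Bern colon replicate 2, Crick colon replicate 2 or 4 or Crick SI replicate 1 or 4 (adjusted p 0.0504 to 0.0577), and in the joint fit of both sorts (0.056).

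Neuronal Csf1 was at -0.06 ± 0.31 between Bern and Crick (edgeR adjusted p = 0.939), and neuronal Bmp4 at 1.67 ± 0.56 (0.0693). DESeq2 called Bmp4 there (adjusted p = 0.019), as did edgeR without Bern colon replicate 3 or 4 or Bern SI replicate 1 (1.82 to 1.85, 0.0372 to 0.0429). Of the pathway lists Ski, which encodes a SMAD co-repressor, was higher in Bern neuronal nuclei (1.20 ± 0.29, 0.0143).

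In non-neuronal nuclei 3 of 10 members were called between the facilities, beside 9.29% of all genes. Bmpr2 and Bmp4 were higher in Bern, as were 4.35% of genes, and Bmp5 was lower, as were 4.94%. Bmpr2 had 372, 346, 339 and 421 CPM in Bern against 305, 246, 148 and 154 CPM in Crick colon. In SI it had 508, 688, 578 and 237 CPM in Bern against 144, 108, 197 and 195 CPM in Crick. Neither segment overlapped, and of the members Bmpr2 alone separated all libraries in both, as did 1.11% of all genes in this direction. The log2 fold change was 1.24 ± 0.24 (edgeR adjusted p = 0.00222), with 1.71 ± 0.34 in SI (0.0111, where 4.44% of genes were called) and 0.77 in colon (0.317). The SI call ended without Crick SI replicate 1 (1.66, 0.0559) and without the 6 libraries in doubt (1.59, 0.0638). Gm38125, which overlaps Bmpr2 on the same strand, held 2607 counts over all libraries, so some of its reads may have been counted apart.

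Bmp4 had 156, 111, 115 and 98.6 CPM in Bern against 28.3, 30.8, 27.8 and 51.7 CPM in Crick colon non-neuronal nuclei, with no overlap. In SI it had 17.7, 324, 19.5 and 20 CPM in Bern against 30.9, 39.5, 37.7 and 31.1 CPM in Crick. The segments went apart, as 3 of the 4 Bern SI libraries lay below every Crick SI library and replicate 2 above them all. The value over both segments was 1.66 ± 0.49 (edgeR adjusted p = 0.0355), and 0.48 (0.239) without Bern SI replicate 2. The call also ended without Bern colon replicate 1, Crick colon replicate 1, 2 or 3 or any Crick SI library (0.0559 to 0.07), and without the 6 libraries in doubt (1.74, 0.105).

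Bmp5 was lower in Bern non-neuronal nuclei by a log2 fold change of -4.08 ± 0.94 (edgeR adjusted p = 0.0079). In SI it had 0, 0, 0.592 and 0 CPM in Bern against 11.5, 5.2, 10.7 and 9.33 CPM in Crick, with no overlap (-5.60 ± 1.44, 0.0344). That call ended without Bern SI replicate 1, 2 or 4, Crick colon replicate 1, 2 or 3 or any Crick SI library (adjusted p 0.0506 to 0.0896), and without the 6 libraries in doubt (-5.44, 0.0773). In colon it had 0, 0.628, 1.8 and 0.457 CPM in Bern against 10.2, 4.09, 2.45 and 0.826 CPM in Crick, which overlapped. Without the 6 libraries in doubt the value over both segments was -3.80 (0.0618). Smad7 was at -2.01 ± 0.80 (edgeR adjusted p = 0.118), and was called without Bern colon replicate 2 (-3.27, 0.0113), by DESeq2 (0.0468) and without the filter (0.0329), and Bmp2 was at -2.06 ± 0.81 (0.116) and called by DESeq2 (0.0167). Csf1 was not called between the facilities in non-neuronal nuclei (0.72 on the log2 scale). Of the lists Bmp8b (-3.75 ± 1.12, 0.0407, with Bern SI at 0) and the co-repressor Skil (-1.32 ± 0.37, 0.027) were lower and Chrdl1 (1.41 ± 0.36, 0.0149) higher in Bern by edgeR's adjusted p.

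The facility by sort interaction called none of the 10 members by edgeR, beside 0.204% of all genes, and DESeq2 called 0. At an unadjusted p below 0.05 there was 1 of the 10 members, Bmpr2 (-0.69 ± 0.33, edgeR adjusted p = 0.345), beside 13.9% of all genes.

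**Figure D5:**
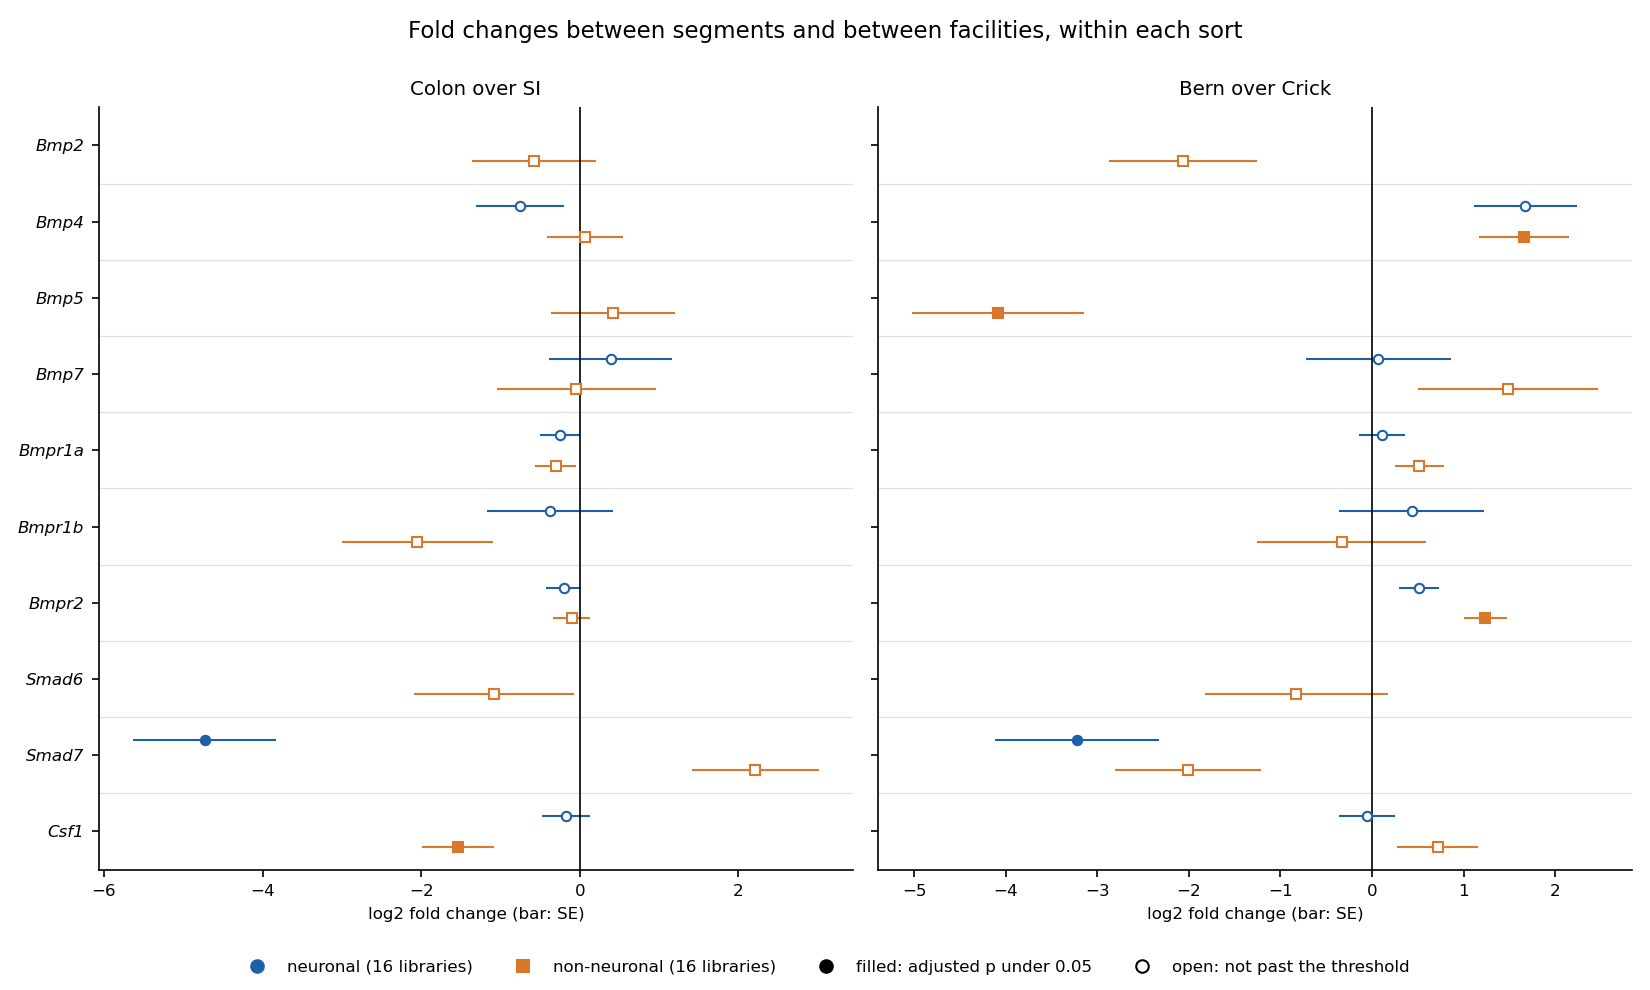
Log2 fold change (± SE) of each member for colon over SI (left) and Bern over Crick (right), in neuronal (blue) and non-neuronal (orange) nuclei, filled where called; Bmp2, Bmp5 and Smad6 were not tested in neuronal nuclei. In neuronal nuclei Smad7 is the called member in both panels, and in non-neuronal nuclei Csf1 is called between segments and Bmp4, Bmp5 and Bmpr2 between facilities.

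The genes most alike each member were taken as those with the smallest root mean square difference between profiles of group mean log2 levels over the 8 groups, each centred on its mean, among 14148 candidates. For Csf1 they were Ccsap (0.238), Syndig1 (0.244) and Hoxb4 (0.245 log2 units). For Bmpr2 they were Mtdh (0.124), Accs (0.153) and Klhl18 (0.182). The closest to Bmpr1a was Cux1 (0.184), to Bmp7 Pgrmc2 (0.179), to Smad6 Gbp5 (0.257), to Bmp5 Bst1 (0.296), to Bmpr1b Nptx1 (0.319), to Bmp2 Smim15 (0.345) and to Bmp4 Tgfb2 (0.383). Smad7 had the most distant nearest profile, Spidr at 0.405. The points share libraries, so these distances describe the 8 groups.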

How the data were processed

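Nuclear RNA of 32 libraries was read on a HiSeq4000. The values the authors deposited are expected counts, 1 table with Ensembl identifiers and a column per library. Per the submitters' processing notes, RSEM 1.3.0, STAR 2.5.2, DESeq2 1.10.1 and GRCm38 were used, and the annotation release is not given in the sources used here. Symbols and exon lengths were joined from GENCODE M21 (51719 of 51912 identifiers matched). Expected counts were rounded and tested with edgeR 4.0.16 in R 4.3.3 (TMM, filterByExpr, group means, quasi-likelihood test, Benjamini-Hochberg), over all 32 libraries for the sort and the interactions, and over 16 libraries within a sort otherwise. The tests were first run on simulated counts. Alternatives were no filter, DESeq2 size factors, DESeq2 1.42.0, a replicate block, a joint fit and leaving out libraries. Genes at 0 in a group were bounded at 3 counts over the group, which covers counting error only. All 10 members are named, with up to 4 called genes per list by fold change and the 3 closest profiles, and 1 gene that this rule selects is not reported here. The members and lists were chosen with earlier results of these data known.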

Additional observations from a re-analysis of the deposited data

Results flagged for a closer look

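In 11 of the 76 combinations of member and group with any spread, 1 library stood apart by the gap to its nearest neighbour as a share of the group's range (Dixon's test at 95%). Chance passes this test in about 1 of 20 groups of normally distributed values. These were CPM of partly sparse counts, and the share is 1.0 at any level where the rest are at 0. The 11 therefore cannot be set against that rate. For Bmp4 these were Bern SI non-neuronal replicate 2, at 324 CPM against 17.7 to 20 CPM in the rest (share 0.992), and Crick colon non-neuronal replicate 4, at 51.7 CPM against 27.8 to 30.8 CPM (0.872). For Bmp5 they were Bern SI neuronal replicate 4 (0.876 CPM) and Bern SI non-neuronal replicate 3 (0.592 CPM), each with the rest at 0 (1.0). Bmp7 in Bern SI non-neuronal replicate 1 (38.9 CPM, 0.878), Bmpr1a in Bern colon neuronal replicate 3 (70 CPM against 39.0 to 42.4 CPM, 0.89), and Bmpr1b in Bern colon non-neuronal replicate 1 (7.87 CPM, 0.869) and Bern SI neuronal replicate 3 (15.5 CPM, 0.902) were also high. Smad6 was above 0 in Bern SI neuronal nuclei only in replicate 3 (3.49 CPM, 1.0). Smad7 was high in Bern colon non-neuronal replicate 2 (69.4 CPM against 1.29 to 7.53 CPM, 0.908) and Crick SI non-neuronal replicate 4 (29.3 CPM against 11.4 to 14.4 CPM, 0.834).

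Smad7 also differed between the sorts in its colon over SI change, by an interaction of -6.98 on the log2 scale (edgeR adjusted p = 0.000837), or -5.57 with Bern colon neuronal nuclei, all at 0, set to their floor. The colon over SI value was -4.73 ± 0.90 in neuronal nuclei (-3.23 with the floor) and 2.21 ± 0.80 in non-neuronal nuclei.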

How the results depend on the processing

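For the sort, the count of all genes called was the steadiest for its size. Of the 10 members 6 were called in neuronal against non-neuronal nuclei with all libraries, 5 to 6 with 1 library left out (9214 to 9887 genes in all) and 6 without the 6 libraries in doubt, a set chosen after seeing the data. DESeq2 called 5, since it gave Bmp4 no adjusted p. In the other comparisons gene counts moved more for their size. With 1 library left out, member counts moved in all of them but neuronal colon against SI and facility by sort. With 1 library left out, called members and genes were 1 to 2 and 1116 to 1864 for segment by sort, 1 and 679 to 1120 for neuronal colon against SI, 0 to 2 and 1172 to 2417 for non-neuronal colon against SI, 0 to 2 and 799 to 1818 for neuronal Bern against Crick, 2 to 4 and 1280 to 2652 for non-neuronal Bern against Crick, and 0 and 3 to 246 for facility by sort.

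DESeq2 called 2 members in neuronal colon against SI, non-neuronal colon against SI and neuronal Bern against Crick, where edgeR called 1 each. Over all genes it called 2286 against 1395 by edgeR for segment by sort, 1905 against 960 for neuronal and 3190 against 1787 for non-neuronal colon against SI, 2663 against 1344 for neuronal and 4610 against 1780 for non-neuronal Bern against Crick, and 676 against 44 for facility by sort. Without the filter these counts were 1652 for neuronal colon against SI, 2155 and 6373 for neuronal and non-neuronal Bern against Crick and 473 for facility by sort, and 2 members were called in non-neuronal colon against SI. The joint fit called 2 members and 2862 genes in non-neuronal colon against SI, 0 members in neuronal and 3176 genes in non-neuronal Bern against Crick. Without the 6 libraries in doubt 0 members and 764 genes were called in non-neuronal colon against SI, 1 member and 745 genes in non-neuronal Bern against Crick, and 143 genes for facility by sort. The share of calls that were higher was 46.8% for non-neuronal Bern against Crick, 26.9% by DESeq2 and 21.5% without the filter, and 64.3% for neuronal Bern against Crick, 50.5% by DESeq2 and 45.1% in the joint fit. It was 35.7% for neuronal colon against SI and 22.8% in the joint fit, 62.1% for non-neuronal colon against SI, 73.7% in the joint fit and 74.6% without the 6 libraries, and 75% for facility by sort, between 51.6% and 89.5% under the alternatives.

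Replicate numbers did not meet the rule that every same-numbered pair correlate over 0.1. In Bern 0 of 24 such pairs did (-0.017 to 0.063), and in Crick 13 of 24 (-0.37 to 0.525, median 0.108), against 20 of 72 pairs with different numbers there (median -0.049). With the replicate block 0 members were called in neuronal Bern against Crick (Smad7 adjusted p = 0.0551), 2 in non-neuronal Bern against Crick (Bmp4 1.25, adjusted p = 0.122), and 11 genes for facility by sort, with member counts as before elsewhere. Uncalled values that changed sign under the block were Bmp7 for the sort (0.12), for non-neuronal colon against SI (0.52), for neuronal and non-neuronal Bern against Crick (-0.26 and -0.043) and for facility by sort (0.42), and Csf1 for the sort (0.044). Other uncalled values that changed sign were Bmpr1a for segment by sort (-0.010 without the filter, -0.30 without the 6 libraries), Bmp4 for facility by sort (-0.048 without the filter, -0.026 with DESeq2 size factors, -0.0076 without the 6 libraries), Bmp7 for non-neuronal colon against SI (0.018 with DESeq2 size factors, 0.020 by DESeq2, 0.016 in the joint fit, 1.54 without the 6 libraries), Bmp7 for segment by sort (-1.17), Bmp4 for non-neuronal colon against SI (-0.080) and Csf1 for neuronal Bern against Crick (0.090), the last 3 without the 6 libraries.

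With 1 library left out, uncalled members spanned 0 for the sort (Bmpr1b -1.20 to 0.0054, Csf1 -0.22 to 0.11), segment by sort (Bmp7 -0.90 to 1.24, Bmpr1a -0.10 to 0.16), neuronal colon against SI (Bmp7 -0.065 to 1.20, Bmpr1b -0.96 to 0.74, Csf1 -0.30 to 0.088), non-neuronal colon against SI (Bmp4 -0.11 to 1.24, Bmp7 -0.39 to 1.26), neuronal Bern against Crick (Bmp7 -0.75 to 0.28, Bmpr1a -0.019 to 0.21, Bmpr1b -0.69 to 0.63, Csf1 -0.32 to 0.090), non-neuronal Bern against Crick (Bmpr1b -1.64 to 0.32) and facility by sort (Bmp2 -0.077 to 0.73, Bmp4 -0.39 to 1.05, Bmp5 -0.079 to 2.87, Bmpr1b -0.34 to 2.08, Smad7 -1.73 to 0.078). The cause of these changes was not tested. Bmp2, Bmp5 and Smad6 missed the filter on low counts in neuronal nuclei, and these and Smad7 had 0 counts in whole groups, where depth limits what can be detected.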
